A study of Arabidopsis thaliana with 38 samples.

Results

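The genes described here stood higher in sorted root cells that carried UAS-BLJ than in any of the 5 sister lines or in the line they were built on. Of 22746 probe sets of the ATH1 array (64 controls were left out), 49 met the rule that chose them. It asked for a mean log2(signal + 16) in UAS-BLJ at least 1 above SHR of the one-cycle labelling set, at least 0.8 above each of the other lines (UAS-IME, UAS-SCR, UAS-JKD, UAS-MGP and UAS-NUC), and for a mean signal of at least 60 in UAS-BLJ. The driven gene BLJ and the marker gene CORTEX met the same limits and were left out. No member carries a UGT symbol. AT4G09500, a UDP-glycosyltransferase family gene known in the annotation by its locus alone, was kept. Of the 49 probe sets, 23 map to 1 gene and 26 are unnamed here. The members were thus chosen by the array values of UAS-BLJ, SHR and the 5 other lines, and what they show in these groups is a description that carries no test.

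RNA was measured on 38 arrays in 13 groups, all from roots of Arabidopsis thaliana seedlings 5 days old on standard medium. Cells sorted by J0571, a ground tissue marker, gave 30 arrays of the C24 ecotype. They were WT and SHR in a two-cycle labelling set, and WT, SHR and 6 lines with the SHR genotype and a UAS transgene for BLJ, NUC, MGP, JKD, SCR or IME in a one-cycle set of 24 arrays. The other groups were of the Columbia ecotype: dissected meristems labelled WT or BLJ, and WT cells of the meristematic zone sorted by the cortex marker CO2. Each group held 3 arrays, except meristem WT with 2. Whether the names SHR and BLJ mean mutants, and how many independent transgenic lines lie behind a UAS label, is not in the labels. The arrays are called biological replicates with no word on separate plants, so p-values cover only the spread between these samples, which may be technical. The sorted cells can be of both cortex and endodermis, in which fewer cells of a type and less RNA per cell cannot be told apart.

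J0571 marks the ground tissue through an enhancer trap that makes the yeast activator GAL4 there, and GAL4 switches on any gene placed behind a UAS element. SHR is a transcription factor that moves from the stele into the neighbouring cell layer, where it acts with SCR and with zinc finger proteins of the BIRD group to set off the division that separates cortex from endodermis. BLJ (BLUEJAY), NUC, MGP, JKD and IME belong to that zinc finger group. The endodermis later builds the Casparian strip, a wall barrier that controls what reaches the stele, and the cortex is the layer outside it.

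Facts of the arrays that touch the choice of members came first. The driven gene checked its label: BLJ read 443 ± 40.1 (SD, n = 3) in UAS-BLJ, 14.2 ± 9.10 in one-cycle SHR and 196 ± 26.1 in one-cycle WT. JKD read 102 ± 15.4 in the line labelled UAS-JKD and 215 ± 41.2 in SHR, so this probe set does not bear the label out. Whether the probe set reads the transgene is not known here. The line is called the line labelled UAS-JKD below. The labels IME, NUC, MGP, SCR and SHR could not be checked, since these genes have no named probe set here. Array medians lay between 55.8 and 177.5 signal units. The signal at the 10th percentile of an array lay between 3.02 and 3.98 in one-cycle WT, SHR and UAS-BLJ and between 8.08 and 10.2 in the 5 other lines, so the dim end was higher in the lines in which the members were lower. Its part in the choice of members was not tested.

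The members lay above SHR by 1.01 to 5.46 on the log2(signal + 16) scale, with a median of 2.01. They lay above the nearest of the 5 other lines by 0.81 to 4.49, with a median of 1.14. This scale understates the change of dim probe sets. In 48 of the 49, the lowest of the 3 UAS-BLJ arrays was above all 18 arrays of SHR and the 5 lines. Of the 15777 probe sets that passed the filter on low signals in the 24 one-cycle J0571 arrays, 2.98% had this order, and since the rule used these arrays nothing is read from the comparison. The exception was the unnamed 254805_at, with 186 ± 14.4 (SD, n = 3) in UAS-BLJ and 1 array of another line at 259.8.

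**Figure D1:**
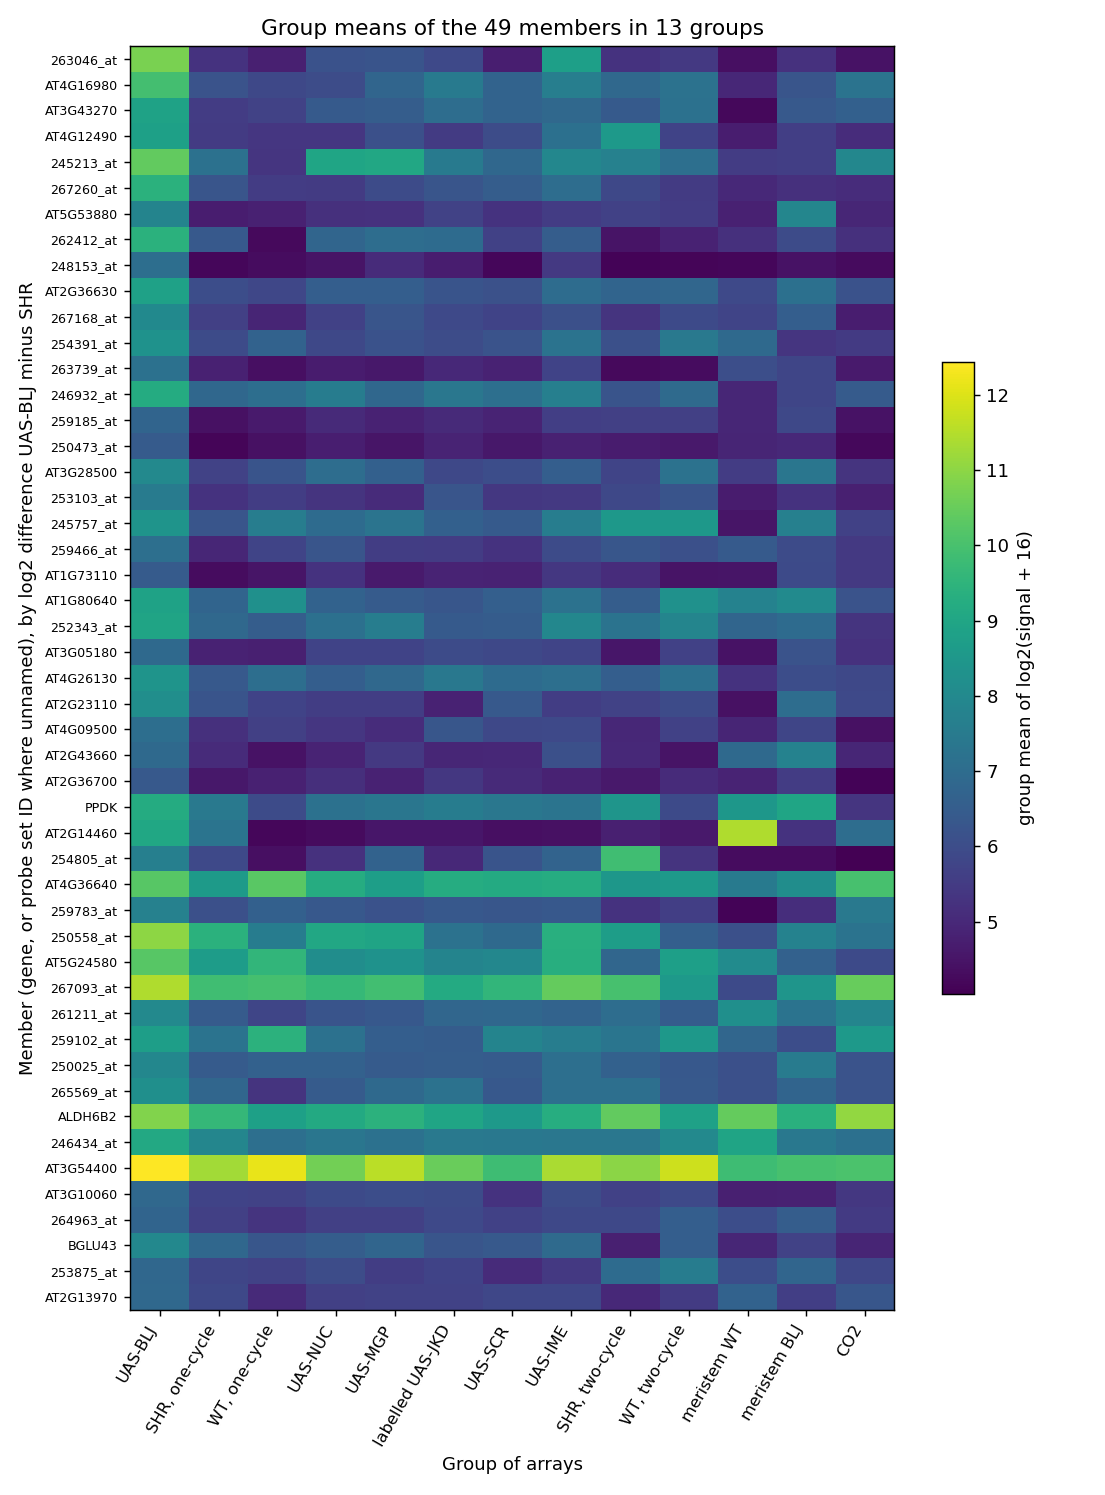
Group means of the 49 members as log2(signal + 16), with members in rows from the largest to the smallest log2 difference between UAS-BLJ and one-cycle SHR and the 13 groups in columns. The UAS-BLJ column is the brightest of the 13 in 39 members, and the remaining rows have their brightest field in two-cycle WT or SHR, one-cycle WT, a meristem group or CO2.

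Near the limits, AT2G13970 was just inside at a log2 difference of 1.01 from SHR, and AT4G14930 was just outside at 0.90. AT2G43660 was just inside at 0.81 above the nearest line, and AT1G21460 was outside at 0.80 when rounded (0.799). On signal, AT2G36700 was inside at 68.9 and the unnamed 254022_at outside at 48.99. Members just inside the log2 limits and probe sets just outside them thus had similar values.

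Genes of the cell wall and secreted proteins made up 8 of the 23 named members, with log2 differences from SHR between 1.09 and 3.75. AT4G16980 encodes an arabinogalactan protein, a heavily glycosylated protein of the cell surface. Its signal was 1048, 969 and 890.4 on the UAS-BLJ arrays, 71.2, 62.02 and 41.4 in SHR and 39.2, 44.3 and 42.2 in one-cycle WT. UAS-IME was the nearest line, with 176, 214 and 160.4. UAS-BLJ therefore stood apart from every other array for this gene, and WT lay with SHR.

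A pair of members modify pectin, the wall polysaccharide whose methyl groups pectin methylesterases remove. AT3G43270, a pectin methylesterase, gave 495, 508 and 380.0 in UAS-BLJ against 26.3, 31.2 and 33.5 in SHR and 54.5, 33.2 and 23.4 in WT. The line labelled UAS-JKD came next at 135, 122 and 93.4. AT2G36700, a pectinesterase family gene, gave 57.8, 80.1 and 68.9 in UAS-BLJ, 10.9, 3.51 and 10.98 in SHR and 12.4, 14.03 and 10.3 in WT. For both genes the UAS-BLJ arrays were above all others of the J0571 one-cycle set. The rule made this order likely for SHR and the other lines.

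AT4G12490 encodes a small secreted protein of the lipid-transfer type. It gave 414, 414 and 489.9 in UAS-BLJ, 25.6, 39.6 and 24.9 in one-cycle SHR and 24.003, 37.7 and 16.8 in one-cycle WT, and UAS-IME followed at 146, 81.9 and 159.7. In the two-cycle set, SHR itself read 321, 523 and 289, close to UAS-BLJ, while WT read 27.99, 54.3 and 33.4. The same genotype label thus gave low values under the one-cycle protocol and high values under the two-cycle protocol, and protocol and set cannot be told apart.

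A further 3 genes of this class had log2 differences from SHR between 1.09 and 2.06. AT3G05180, a GDSL-type lipase family gene, had 88.1, 91.9 and 138 in UAS-BLJ and 15.8, 7.60 and 16.1 in SHR. The means of the 5 other lines lay between 37.3 and 47.4, also above the SHR mean of 13.2. AT2G43660, which carries the carbohydrate-binding X8 domain, had 92.2, 103 and 119 in UAS-BLJ and 11.1, 22.4 and 19.7 in SHR. Meristems labelled BLJ, its highest group, had 157, 171 and 298, and WT meristems had 97.5 and 110.5. Between these meristem groups it was not called, at a log2 difference of 0.36 ± 0.42 (SE, limma adjusted p = 0.597). BGLU43 (AT3G18070), a beta-glucosidase, had 241, 233 and 221 against 93.997, 90.1 and 118. All 3 had their lowest UAS-BLJ array above their highest SHR array, an order that the rule made likely.

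AT3G54400 encodes an aspartyl protease. Its signal was 5484, 5139 and 5975 in UAS-BLJ, 2479, 2950.4 and 2069.7 in SHR and 4196, 4864 and 4747 in WT. For this gene WT lay above SHR and below UAS-BLJ on every array.

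Enzymes of metabolism and transport proteins numbered 6, with log2 differences from SHR between 1.24 and 2.82. PPDK (AT4G15530), the pyruvate orthophosphate dikinase that makes phosphoenolpyruvate from pyruvate, gave 619, 562 and 555 in UAS-BLJ, 179.9, 124 and 166 in SHR and 32.3, 94.3 and 30.6 in WT. The other 5 lines had means between 131 and 177, near SHR. Meristems gave 439.5, 654 and 405 under the label BLJ and 331 and 346 in WT, and two-cycle SHR gave 231, 378 and 394. The order of the 3 one-cycle groups was UAS-BLJ, SHR, WT, with no overlap between neighbours, and 1 meristem BLJ array was above every UAS-BLJ array.

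ALDH6B2 (AT2G14170) encodes methylmalonate-semialdehyde dehydrogenase, a mitochondrial enzyme of valine breakdown. It gave 1609.8, 2056 and 1881 in UAS-BLJ, 886, 667 and 774 in SHR and 418, 456 and 435 in WT. Its highest group was CO2, at 1989, 2076 and 2381. As for PPDK, WT was below SHR and SHR below UAS-BLJ on all arrays.

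AT2G36630 belongs to the TauE/SafE family of putative anion exporters. It gave 504, 424 and 398 in UAS-BLJ, 40.4, 41.8 and 66.8 in SHR and 37.7, 41.1 and 41.9 in WT. AT4G09500, the UDP-glycosyltransferase family gene, gave 109.8, 139.6 and 112 in UAS-BLJ, 24.2, 18.7 and 19.1 in SHR and 38.6, 31.96 and 30.6 in WT. In both, WT was far nearer to SHR than to UAS-BLJ.

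In a further pair of this class WT lay above SHR on all arrays. AT4G36640, a Sec14-like protein of the family that carries phospholipids, read 1163, 1075 and 1431 in UAS-BLJ, 482, 377 and 299 in SHR and 1434, 909 and 1445 in WT, and the WT and UAS-BLJ arrays overlapped. AT5G24580, a heavy-metal-associated domain protein, read 1122, 1282 and 1255 in UAS-BLJ, 456, 442 and 311 in SHR and 719.7, 573 and 959 in WT. For this gene WT lay between the other groups and overlapped neither.

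Genes of protein folding, translation, signalling and protection, together with a nucleoside triphosphatase, numbered 5, with log2 differences from SHR between 1.15 and 2.29. AT1G80640 encodes a protein kinase. It gave 432, 463 and 454 in UAS-BLJ, 113, 104 and 63.8 in SHR and 358, 210.0 and 318 in WT, while the highest of the 5 other lines, UAS-IME, had a mean of 130.4. WT and UAS-BLJ were thus both above SHR and above every other line on all arrays.

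AT3G28500 encodes an acidic stalk protein of the large ribosomal subunit. It gave 273, 186 and 270.3 in UAS-BLJ and 33.02, 53.5 and 25.8 in SHR, and the nearest line, UAS-NUC, reached 98.6, 178 and 85.9. The highest UAS-NUC array came close to the lowest UAS-BLJ array. AT2G23110, a late embryogenesis abundant protein of a class known from drying seeds, gave 253, 243 and 350.2 in UAS-BLJ and 69.4, 48.2 and 60.5 in SHR. The nearest line, UAS-SCR, gave 69.03, 58.01 and 78.8, and the lowest, the line labelled UAS-JKD, gave 24.9, 3.49 and 14.04.

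AT1G73110, a P-loop nucleoside triphosphatase, gave 79.6, 74.3 and 61.7 in UAS-BLJ and 0.82, 1.79 and 11.4 in SHR, and at most 31.7 on any J0571 array outside UAS-BLJ. AT3G10060, an FKBP-type peptidyl-prolyl isomerase that helps proteins fold, gave 92.2, 89.3 and 124 in UAS-BLJ and 34.1, 32.2 and 44.3 in SHR. The meristem BLJ arrays of AT1G73110 read 27.3, 5.94 and 221, so 1 array of that group was far above the other two.

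No role is stated here for AT5G53880, AT4G26130, AT2G14460 and AT2G13970, the last of which the RefSeq gene table lists as a pseudogene. AT5G53880 gave 198, 269 and 178 in UAS-BLJ and 5.90, 17.4 and 8.12 in SHR, and meristems labelled BLJ read 81.9, 266 and 460.1. AT4G26130 gave 289, 350.0 and 323 in UAS-BLJ and 64.3, 85.4 and 55.8 in SHR. AT2G13970 gave 95.9, 93.8 and 112 in UAS-BLJ and 33.8, 37.2 and 56.9 in SHR. Each had UAS-BLJ above SHR on all arrays, an order that the rule made likely. In deposited signal AT5G53880 was also above its SHR and WT levels on the meristem BLJ arrays. The dim end was higher on those arrays than in WT meristems. After quantile normalization AT5G53880 was not called between the meristem groups (limma adjusted p = 0.12).

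AT2G14460 had the only profile of its kind among the 49: one-cycle SHR lay at least 1 log2 unit above all 5 other lines. Its signal was 562, 458 and 529.6 in UAS-BLJ and 97.9, 178 and 152 in one-cycle SHR. The means of the 5 other lines lay between 3.47 and 8.35, and one-cycle WT read 1.64, 1.93 and 2.64. In the two-cycle set, SHR read 1.89, 6.08 and 37.5 and WT 1.78, 2.55 and 29.1. The gene was therefore well above the dim end in 2 of the 8 one-cycle J0571 groups and near it in the other 6, and in the two-cycle set 1 array of each genotype stood above its partners.

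By log2 difference from SHR, the highest unnamed members were 263046_at and 245213_at. The probe set 263046_at had the largest log2 difference of all 49 from SHR, 5.46, with 1696, 1913 and 1504 in UAS-BLJ and 17.8, 21.8 and 29.5 in SHR. UAS-IME was above SHR as well, at 459.9, 444 and 358, while WT read 7.26, 17.1 and 10.1. The probe set 245213_at read 1589, 1347 and 1168 in UAS-BLJ and 132, 123 and 127 in SHR, with 454, 488 and 659.9 in UAS-MGP and 21.1, 11.1 and 49.1 in WT. The remaining 24 unnamed members ranged from 1.07 to 3.14 in their log2 difference from SHR.

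**Figure D2:**
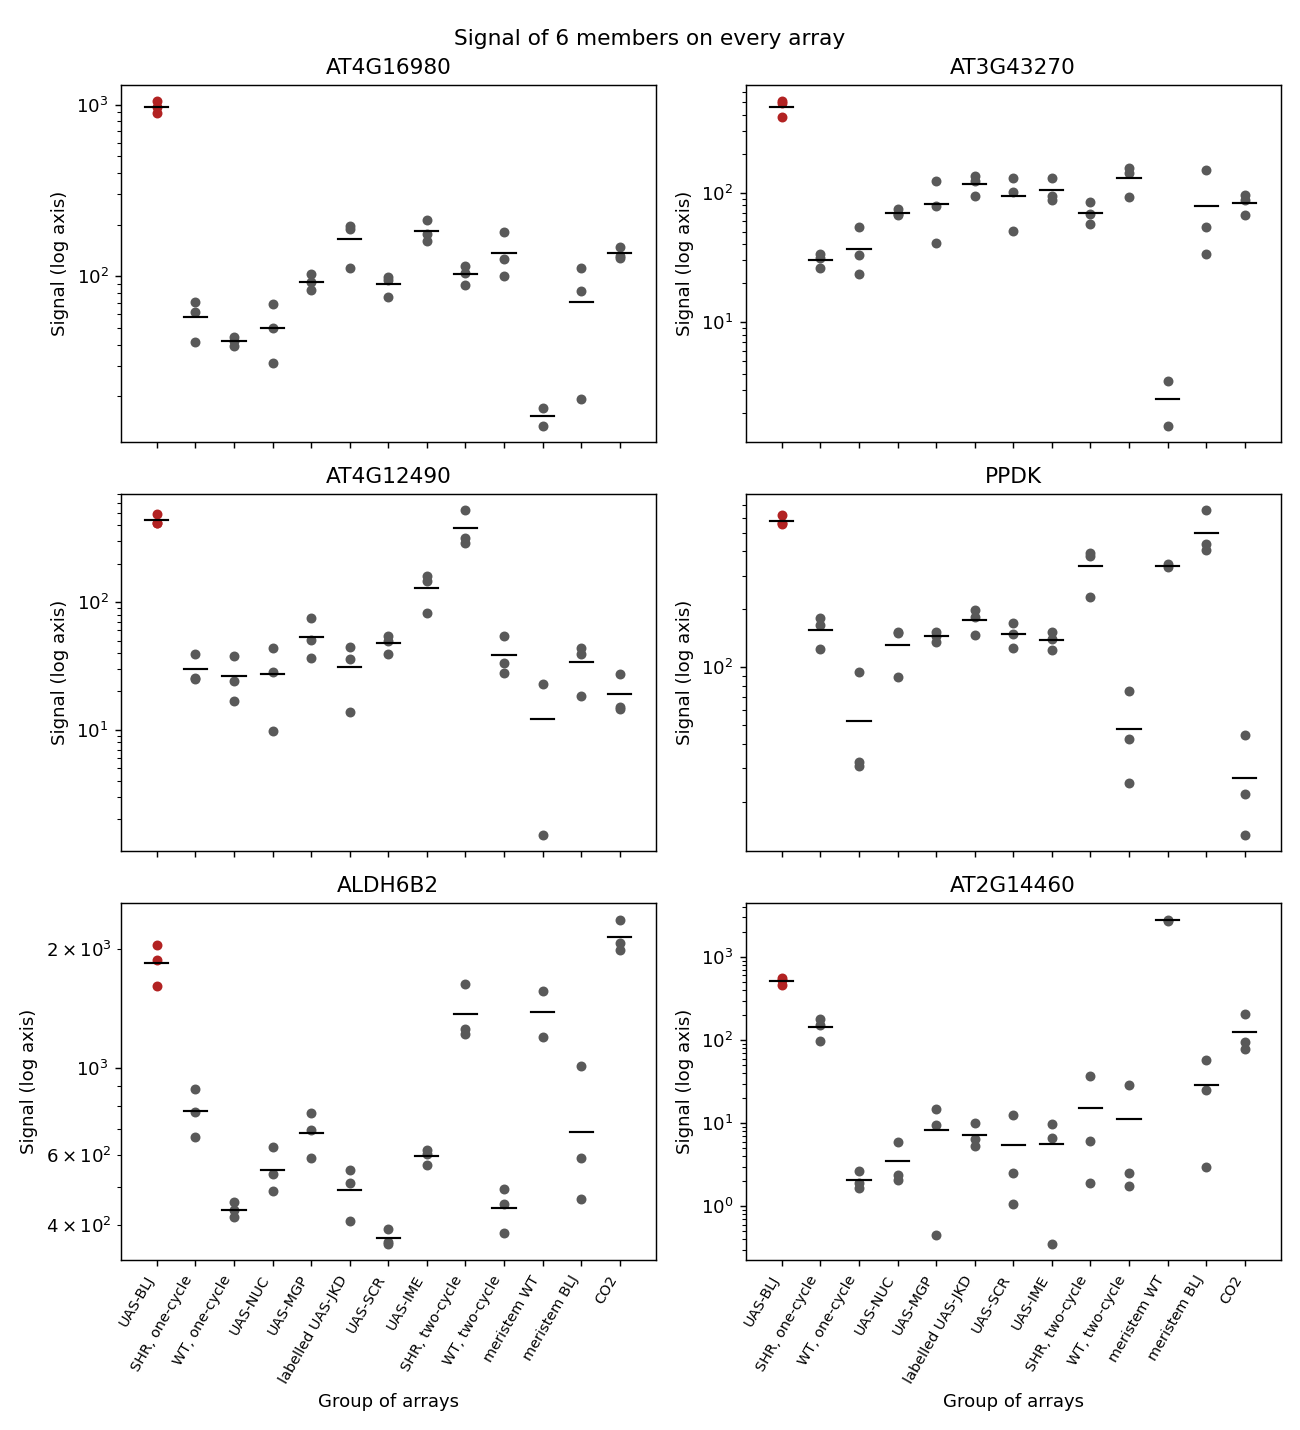
Signal on every array (points, log axis, UAS-BLJ in red) and the group mean (bars) for 6 members in the 13 groups. AT4G16980 and AT3G43270 are high in UAS-BLJ alone, AT4G12490 is also high in two-cycle SHR, PPDK in two-cycle SHR and both meristem groups, ALDH6B2 is as high in CO2, and AT2G14460 is highest in meristem WT.

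One-cycle WT lay within 1 log2 unit of SHR in 38 of the 49 members, against 87.0% of the 15777 probe sets. It was at least 1 unit above SHR in 4 (6.29% of all) and at least 1 unit below in 7 (6.74%), among them PPDK and AT2G14460. Since members lay at least 1 unit above SHR by the rule, a WT level near SHR places WT below UAS-BLJ. WT lay at least 1 unit below UAS-BLJ in 43 (8.04% of all) and within 1 unit in 6, among them AT4G36640, AT5G24580, AT1G80640 and AT3G54400. It lay above UAS-BLJ in 2, AT4G36640 and the unnamed 259102_at. These counts share the SHR and UAS-BLJ arrays with the rule, so they are given without a test and nothing is read from them about the members.

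Among the 5 other lines, UAS-IME was the highest in 21 of the 49 members, or 42.9%, against 14.8% of the 15777 probe sets. The line labelled UAS-JKD was highest in 14, UAS-MGP in 7, UAS-SCR in 4 and UAS-NUC in 3. Over all probe sets it was UAS-MGP that came highest most often, in 36.5%. UAS-IME was the lowest of the 5 in 1 member. The rule used the level in each of these lines, which makes the shares a description.

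**Figure D3:**
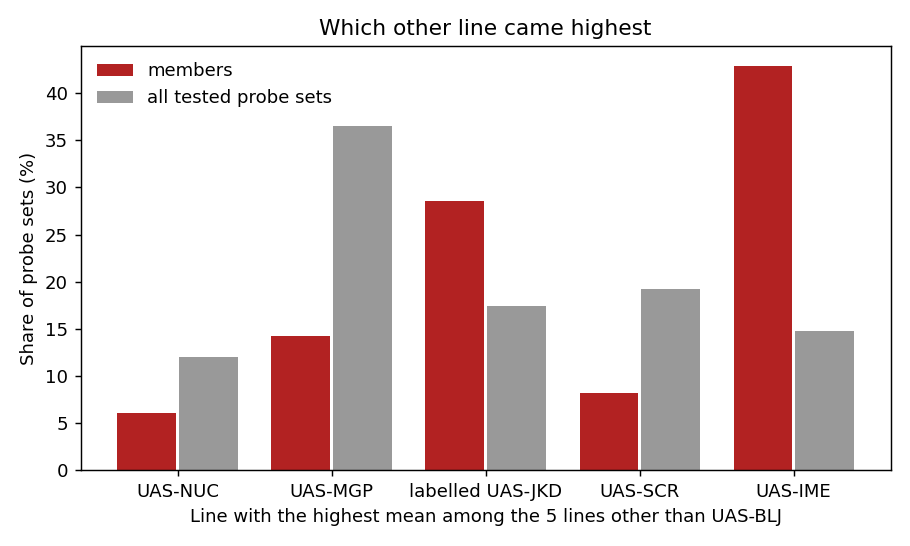
Share of probe sets (%) in which each of the 5 lines other than UAS-BLJ had the highest mean log2(signal + 16), for the 49 members (red) and for the 15777 tested probe sets (grey). UAS-IME leads among the members with 42.9% and UAS-MGP among all tested with 36.5%.

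A total of 4 comparisons on arrays that the rule did not use were tested with limma over all probe sets that passed the filter, with a call where the Benjamini-Hochberg adjusted p was under 0.05. Members that failed the filter were not tested, and those that passed are not all members, so counts are given out of 49 beside the share of all tested probe sets called. Over all 49 members without a filter, the median log2 difference was 0.25 for two-cycle WT minus SHR (0.19 over all probe sets), -0.12 for meristem BLJ minus WT (0.01), -0.20 for CO2 minus J0571 WT (-0.16) and 0.10 for CO2 minus meristem WT (-0.17).

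The first comparison asked how the members stood between WT and SHR in the two-cycle set. Of 49 members, 30 were tested, 4 were higher in WT (14.8% of tested probe sets) and 6 were lower (13.9%). AT4G12490 was lower in WT, with 38.6 ± 13.9 against 378 ± 127 (SD, n = 3 each) and a log2 difference of -2.83 ± 0.30 (SE, limma adjusted p = 0.00135). PPDK was lower, at -2.50 ± 0.35 (SE, limma adjusted p = 0.00304), and ALDH6B2 as well, at -1.59 ± 0.23 (SE, limma adjusted p = 0.00326). The unnamed 254805_at, 250558_at and 267093_at made up the rest, at -4.55, -2.10 and -1.46. In each of the 3 named genes the groups did not overlap, which adds nothing to calls made on the same arrays.

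The 4 higher in WT were AT5G24580, AT1G80640, BGLU43 and the unnamed 254391_at. AT5G24580 gave 381, 592 and 336 in WT and 51.1, 117 and 141 in SHR, a log2 difference of 1.97 ± 0.37 (SE, limma adjusted p = 0.00867). AT1G80640 gave 222, 589 and 202 against 64.8, 64.6 and 103, a difference of 1.78 ± 0.41 (SE, limma adjusted p = 0.0177). BGLU43 gave 80.7, 66.7 and 88.4 against 1.69, 9.75 and 30.6, a difference of 1.77 ± 0.37 (SE, limma adjusted p = 0.0129). No WT array of these 3 genes overlapped SHR, which again adds nothing to the calls. Without the second SHR array the calls of AT1G80640 and BGLU43 were lost, at adjusted p = 0.0623 and 0.0506.

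AT3G28500 and AT3G54400 had differences of 1.45 and 0.84 that missed the threshold (limma adjusted p = 0.0756 and 0.0557). AT3G43270 had 0.75 (adjusted p = 0.0661) and AT4G16980 0.33 (adjusted p = 0.365). The number of calls over all probe sets, 4122, rested on single arrays: it was 2058 without the first WT array, 2202 without the third and 2378 without the second SHR array.

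The second comparison set meristems labelled BLJ against WT meristems, the only other place where BLJ is in the label. BLJ itself read 10.3 ± 7.12 (SD, n = 3) and 5.16 ± 6.13 (SD, n = 2), near the dim end in both, so this probe set does not check the label. Array medians differed enough that these 5 arrays were quantile normalized for the fit, while the signals given are as deposited. The signal at the 10th percentile was 11.4 to 17.2 in meristem BLJ and 2.58 to 3.31 in meristem WT. Of the 49 members, 30 were tested, none was called higher (2.28% of tested probe sets) and 1 lower (0.444%), while 9 had an unadjusted limma p under 0.05, as had 3824 of the 15534 probe sets tested.

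The member called lower was AT2G14460, with 2827 and 2706 in WT and 2.95, 25.3 and 57.2 in BLJ meristems. The log2 difference was -6.22 ± 0.50 (SE, limma adjusted p = 0.0063), and the groups were far apart. Without the second BLJ array no probe set at all was called and the adjusted p of AT2G14460 was 0.151, though its difference was then -6.35. The 423 calls over all probe sets became 115 and 116 without the first and second WT array, and 2425 without the first BLJ array and 1802 without the third.

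On the deposited values without quantile normalization, 6 members were called, 5 higher and 1 lower. The median of all tested probe sets was then 0.33 instead of -0.15, and 1350 probe sets were called higher and 790 lower instead of 354 and 69. The named ones added were AT5G53880, at 3.08 ± 0.76 (SE, limma adjusted p = 0.0300), and AT2G23110, at 2.62 ± 0.72 (SE, limma adjusted p = 0.0438). With normalization these differences were 2.68 ± 0.81 (SE, limma adjusted p = 0.12) and 1.90 ± 0.55 (SE, limma adjusted p = 0.113). The direction of both was the same under either scaling.

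The third comparison set CO2 cells against one-cycle WT cells sorted by J0571. Marker and ecotype differ between these groups, as may the zone, so these differences cannot be told apart. Of 49 members, 28 were tested, 9 were higher in CO2 (23.2% of tested probe sets) and 10 lower (34.1%). The median of all tested probe sets was -0.23, and -0.07 after quantile normalization. Both directions were therefore common over the whole array.

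Higher in CO2 were ALDH6B2, by 2.25 ± 0.16 (SE, limma adjusted p = 2.04e-05), AT2G14460, by 2.87 ± 0.32 (SE, limma adjusted p = 1.37e-04), and AT4G16980, by 1.39 ± 0.18 (SE, limma adjusted p = 3.02e-04). AT2G14460 read 77.8, 207 and 94.4 on the CO2 arrays, and AT4G16980 148, 129 and 132. AT2G13970 was higher by 1.24 ± 0.23 (SE, limma adjusted p = 0.00191) and AT3G43270 by 0.93 ± 0.26 (SE, limma adjusted p = 0.0129), the latter call being lost without the third WT array (adjusted p = 0.0594). The remaining 4 are unnamed, with 245213_at at 2.60. For each of these 5 named genes, every CO2 array lay above every J0571 WT array. This adds nothing to the calls, which were made on the same arrays.

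Of the 10 members lower in CO2, 6 are named. AT5G24580 read 47.8, 31.5 and 60.7 in CO2, a log2 difference of -3.61 ± 0.25 (SE, limma adjusted p = 1.94e-05) from J0571 WT. AT3G54400 stood at -2.10 ± 0.34 (SE, limma adjusted p = 9.40e-04) and AT1G80640 at -2.07 ± 0.24 (SE, limma adjusted p = 1.61e-04). BGLU43 stood at -1.39, AT4G26130 at -1.20 and AT3G28500 at -0.93, all called, beside 4 unnamed probe sets. AT4G36640 differed by -0.29 ± 0.29 (SE, limma adjusted p = 0.405) and was not called.

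The fourth comparison set the same CO2 arrays against whole WT meristems of the same ecotype. Sorting differs between the groups and cannot be told apart from cell type. Of 49 members, 30 were tested, 11 were higher in CO2 (31.2% of tested probe sets) and 10 lower (41.4%). AT4G36640 was higher by 2.52 ± 0.32 (SE, limma adjusted p = 1.90e-04), AT3G43270 by 2.41 ± 0.25 (SE, limma adjusted p = 5.95e-05), AT4G16980 by 2.28 ± 0.23 (SE, limma adjusted p = 4.85e-05) and AT2G23110 by 1.46 ± 0.26 (SE, limma adjusted p = 0.00107). The call of ALDH6B2, 0.64 ± 0.22 (SE, limma adjusted p = 0.0301), was lost without the first meristem array (adjusted p = 0.233) or the third CO2 array (adjusted p = 0.0960). The other 6 higher members are unnamed, the largest being 267093_at at 4.54.

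Lower in CO2 than in meristems were AT2G14460, at -4.40 ± 0.36 (SE, limma adjusted p = 1.59e-05), PPDK, at -3.12 ± 0.32 (SE, limma adjusted p = 5.79e-05), and AT5G24580, at -2.14 ± 0.31 (SE, limma adjusted p = 3.54e-04). AT2G43660 was lower, at -1.96 ± 0.28 (SE, limma adjusted p = 3.57e-04), as was AT1G80640, at -1.57 ± 0.27 (SE, limma adjusted p = 8.43e-04), and the other 5 are unnamed. PPDK read 331 and 346 in meristem WT and 13.5, 44.5 and 21.9 in CO2, with no overlap. The last 2 comparisons share the CO2 arrays, so their values are given side by side and not set against each other.

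**Figure D4:**
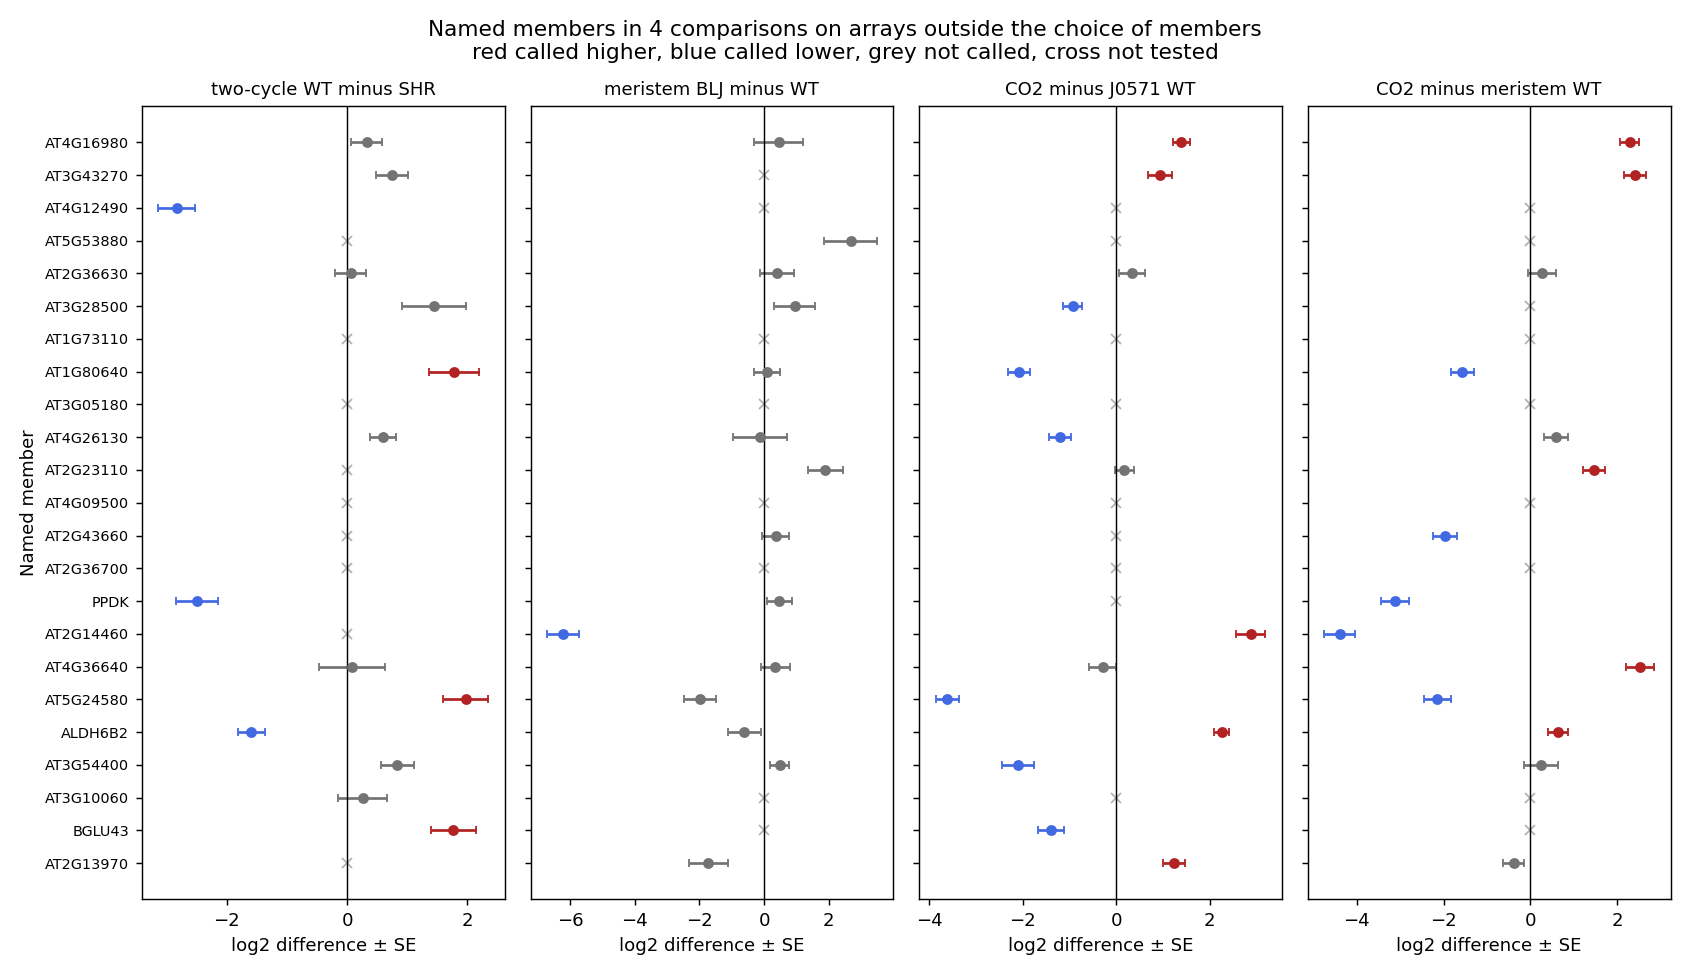
Log2 differences with their SE for the 23 named members in the 4 tested comparisons (red called higher, blue called lower, grey not called, cross at 0 not tested, no value). Meristem BLJ minus WT holds 1 call, AT2G14460 at -6.22, while CO2 against either WT group holds calls in both directions.

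Gene lists chosen for root tissues and stress gave the setting in UAS-BLJ against SHR, a contrast the rule used for the members. The lists were chosen with earlier results of these data known, so their p-values serve as a description. Over all probe sets 6.47% were called higher and 4.67% lower. Of 13 listed endodermis and Casparian strip genes, 4 were tested. None of the 4 was called higher and 1 lower, AT2G39430, a dirigent family gene, at -1.43 ± 0.32 (SE, limma adjusted p = 0.00389). Of 5 cortex genes, CORTEX (AT1G09750) met the limits of the rule, so its log2 difference of 2.73 carries no test. Of the other 4, AT3G21670, a nitrate transporter family gene, was called higher at 0.51 ± 0.16 (SE, limma adjusted p = 0.0498) and 2 were called lower. AT1G62510 and AT1G62500, of the lipid-transfer type, stood at -2.57 ± 0.27 (SE, limma adjusted p = 1.07e-06) and -2.62 ± 0.44 (SE, limma adjusted p = 3.50e-04).

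The BIRD and GRAS list held 10 genes. Of the 2 tested beside the driven BLJ, which met the limits of the rule, JKD was called lower, at -2.33 ± 0.22 (SE, limma adjusted p = 2.39e-07). Its mean was 30.2 in UAS-BLJ and 215 in SHR, but lower still in UAS-IME, at 23.2, and between 64.8 and 190 in the remaining lines. Of 8 listed wound and early stress genes, 3 were tested. WRKY53, a transcription factor of defence and senescence, was called higher at 1.49 ± 0.33 (SE, limma adjusted p = 0.00392). Its mean was 216 in UAS-BLJ and 69.1 in SHR, but higher still in UAS-IME, at 313, and between 90.5 and 155 in the remaining lines. Of 10 listed epidermis and root hair genes, 3 were tested and none was called. The summed signal of these 3 ran from 300.0 to 549 in UAS-BLJ and from 321 to 635 in SHR. It ran from 1769 to 2298 in the line labelled UAS-JKD and from 994 to 2484 in UAS-SCR. In UAS-NUC it ran from 351 to 897, in UAS-MGP from 198 to 630 and in UAS-IME from 389 to 850. HCT of monolignol synthesis, CHIL of flavonoid synthesis and LEA4-5 of drought protection were not called. They were the only genes tested from lists of 16, 7 and 8 genes, so these lists were hardly covered. No probe set of the stele, root cap or salicylic acid lists has a name here and the 1 named jasmonate gene did not pass the filter, so their part in the members' levels was not tested.

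The 23 named members lie on all 5 chromosomes, with 2 on chromosome 1, 7 on chromosome 2, 6 each on chromosomes 3 and 4, and 2 on chromosome 5. Their nearest pair, AT2G36630 and AT2G36700, has 8 genes between them in the RefSeq gene table. A second group lies on chromosome 2, where AT2G13970, ALDH6B2 (AT2G14170) and AT2G14460 fall within a run of 72 genes, with 25 and 44 genes between neighbours.

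Of 29 probe sets that map to 1 gene of this run, 8 passed the filter, the 3 members included. AT2G14255 was kept out of the members only by its log2 difference from SHR, 0.81. It read 91.1, 84.8 and 102 in UAS-BLJ, 45.2, 39.9 and 52.8 in SHR and 4.51, 28.3 and 40.3 in WT, while the means of the 5 other lines lay between 3.48 and 6.88. Like AT2G14460, it was thus above the 5 lines in both SHR and UAS-BLJ. In WT meristems the genes differed, with means of 2.72 for AT2G14255 and 2767 for AT2G14460. AT2G14260, its direct neighbour in the table, read 552 in UAS-BLJ and 857 in SHR, and the 5 lines lay between 620.5 and 900.4. This run was looked at after the values of its members had been seen.

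**Figure D5:**
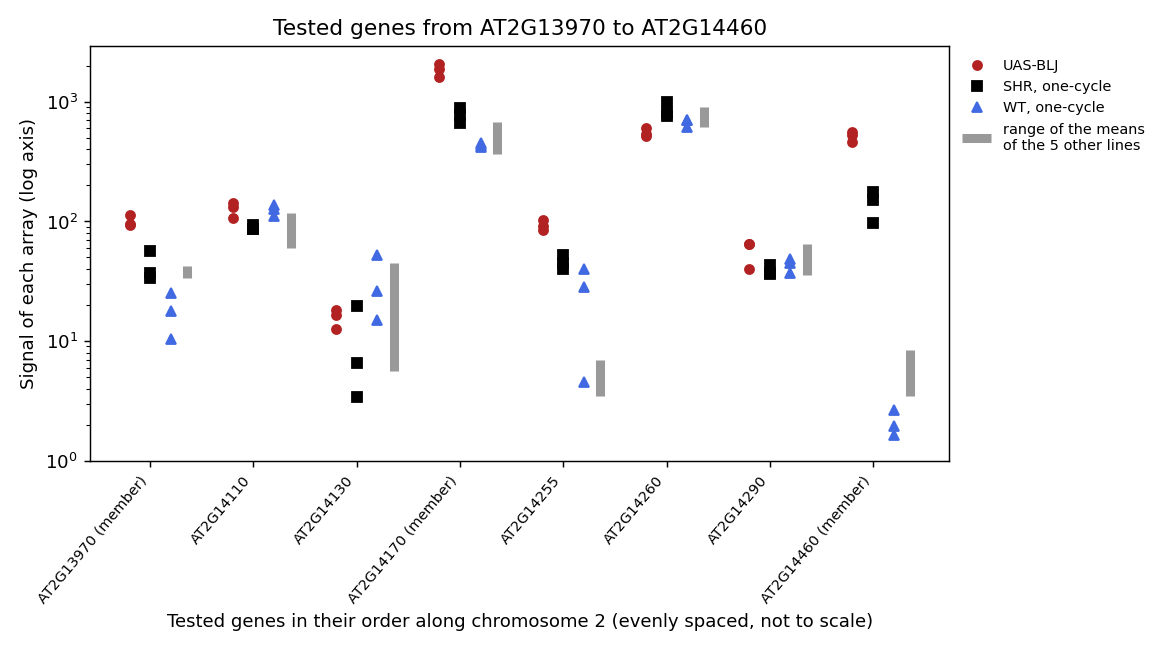
Signal of each array (log axis) of the 8 tested genes from AT2G13970 to AT2G14460, evenly spaced in their order along chromosome 2, in UAS-BLJ (red circles), one-cycle SHR (black squares) and one-cycle WT (blue triangles), with grey bars for the range of the means of the 5 other lines. AT2G14255 and AT2G14460 lie higher in SHR and UAS-BLJ than in the 5 other lines, where both are near the dim end, while AT2G14260 does not.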

How the data were processed

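Total RNA of sorted cells or dissected meristems was labelled with biotin and read on ATH1 arrays, 1 sample per array, per the labels' protocols. The deposited values are linear intensity values from MAS5, per the submitters' processing notes, which give no version. Between any pair of the 38 arrays, at most 0.0044% of the deposited values were exactly equal. The number of arrays limits the precision. Groups come from the labels.

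Members were chosen by the rule in the text, on means of log2(intensity + 16). The members and the gene lists were chosen with earlier results of these data known, and the role groups after the members' values were seen. Every member with exactly 1 gene was named, with the 2 highest unnamed probe sets, and up to 3 called genes of a list. AT4G14930, AT1G21460, 254022_at, AT2G14255, AT2G14260, AT3G21670 and the other unnamed probe sets given by ID fall outside that rule and were picked with their values in view. The probe annotation gives 1 gene for 13513 of 22746 probe sets, and 13436 of these matched the TAIR10.1 gene table by gene ID; probe sets with several genes were left unnamed. The files name no genome build, so no coordinates are given.

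Tests used limma 3.58.1 (lmFit, eBayes with a trend) in R 4.3.3, checked on simulated data. A probe set was tested where it lay above the 40th percentile of a fit's values in enough arrays to fill the smaller group. Quantile normalization was used where array medians spanned over 0.5 in log2. UAS-BLJ against SHR was fitted on 24 arrays. Alternatives changed the pseudocount, normalization, filter, limits of the rule, and left out each array. Promoter sequences were not used here.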

Additional observations from a re-analysis of the deposited data

How the results depend on the processing

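The rule gave 49 members, 62 with a pseudocount of 1, 47 after quantile normalization (45 shared), 34 with a margin of 1 above each line and 44 with a signal of at least 100. With a pseudocount of 64 it gave 32, since a larger pseudocount shrinks the log2 differences of dim probe sets. Leaving out each array in turn gave 45 to 54, and 35 of the 49 members were kept in all 21 such settings. In two-cycle WT minus SHR, the calls over all probe sets ran from 2058 to 3959 without 1 array, and the members called from 8 to 12. In meristem BLJ minus WT, they ran from 0 to 2425 over all probe sets and from 0 to 5 over members. That comparison called 2140 probe sets and 6 members on values as deposited, and 2 members with a pseudocount of 64. UAS-BLJ minus SHR called 1756 on 24 arrays and 3456 on its 6 arrays alone. Both CO2 comparisons stayed within 1.5 times under every alternative run. Of the values of single named members that were called, 279 kept their side of the threshold under the alternatives and 7 did not, and none changed direction. Unnamed called members are not in these counts. The cause was not tested for the other changes. Depth is limited by signal: 19 to 21 members failed the filter in each comparison.

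Replicate numbers shared by label did not pair the samples in the two-cycle set, where arrays of the same number had correlations of -0.28, -0.19 and 0.11 of their deviations from the group means. With the replicate number as a block, two-cycle WT minus SHR called 2657 of 14331 tested probe sets and 10 of the 49 members. Meristem BLJ minus WT called 2849 of 15534 tested probe sets and 7 members. CO2 minus meristem WT called 9772 of 15321 and 20 members, with ALDH6B2 at limma adjusted p = 0.154, and its fit left 1 residual degree of freedom. In meristem BLJ minus WT, arrays of the same number had correlations of -0.16 and -0.03, and the third BLJ array had no WT array of its number. That block fit left 1 residual degree of freedom. Its added named calls were AT5G53880 (2.17, limma adjusted p = 0.00947), AT5G24580 (-2.17, limma adjusted p = 0.00237) and ALDH6B2 (AT2G14170, -1.07, limma adjusted p = 0.0318). Nothing is read from these added calls. No paired analysis was possible for CO2 minus J0571 WT and UAS-BLJ minus SHR because the groups share no replicate numbers.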
